A study of Arabidopsis thaliana with 21 samples.

Results

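The 10 genes described here code for jasmonate repressors and for enzymes that make jasmonate. They were taken by locus from the 27586 loci in the deposited tables: JAZ1 (AT1G19180), JAZ2 (AT1G74950), JAZ5 (AT1G17380), JAZ6 (AT1G72450), JAZ7 (AT2G34600), JAZ8 (AT1G30135), JAZ10 (AT5G13220), LOX3 (AT1G17420), LOX4 (AT1G72520) and AOS (AT5G42650). All 10 passed the filter on low counts, as did 19809 loci in all. RNA was sequenced from Arabidopsis thaliana root tips of 1 to 2 mm, 50 tips to a library, cut from plants grown for 5 days. The study asked how auxin and the auxin coreceptor AXR3 act on root cells, in 3 experiments with 7 groups of 3 biological replicates.

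In the chemical experiment, Col-0, the wild type, was exposed for 20 min to 10 nM of the auxin IAA, to 10 µM of the auxin antagonist PEO-IAA, or to ethanol as mock. In the heat experiment, tips came from HS:AXR3-1 and Col-0 after 40 min of heat (37 °C) with 80 min of recovery. In the estradiol experiment, tips came from XVE:AXR3-1-RFP and Col-0 after 2 h on 5 µM estradiol. Both lines are in the Col-0 background and carry AXR3-1, a stable form of the repressor. It is driven by a heat shock promoter in the first and by the estradiol-inducible XVE system in the second. The study's design text names the second line g1090::XVE>>AXR3-1-mCherry. The control of each line was Col-0 without the transgene, and neither the lines without induction nor the number of transgenic clones is given in the sources used here.

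Jasmonates are fatty acid hormones known for their part in wounding, defence and restraint of root growth. Lipoxygenases such as LOX3 and LOX4 oxygenate linolenic acid in plastids, and AOS, allene oxide synthase, takes the product to the first step that is specific to jasmonate. The hormone, joined to isoleucine, brings JAZ proteins to the COI1 receptor for degradation, which frees MYC2 and related transcription factors. JAZ genes are themselves induced by jasmonate, so their transcripts are widely used as a readout of the pathway. The JAZ proteins share this repressor role, with JAZ7 and JAZ8 known for a weak response to the hormone and JAZ10 for splice forms that resist degradation.

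The regulatory sequence just before the genes is shown first, as a description, and its part in the levels was not tested. The windows hold the 250 bases before each gene's annotated start in RefSeq, build TAIR10.1, read 5′ to 3′ on the gene's strand. Capitals mark CACGTG, the G-box that MYC2 is known to bind, and TGTCTC, an auxin response element. The first 4 are the genes with a match, JAZ2 (chr1:28150447-28150696, minus strand), JAZ7 (chr2:14572780-14573029, plus strand), JAZ8 (chr1:10596102-10596351, plus strand) and AOS (chr5:17099596-17099845, minus strand). LOX4 (chr1:27308263-27308512, plus strand) is shown because the comparisons with IAA turn on it.
JAZ2: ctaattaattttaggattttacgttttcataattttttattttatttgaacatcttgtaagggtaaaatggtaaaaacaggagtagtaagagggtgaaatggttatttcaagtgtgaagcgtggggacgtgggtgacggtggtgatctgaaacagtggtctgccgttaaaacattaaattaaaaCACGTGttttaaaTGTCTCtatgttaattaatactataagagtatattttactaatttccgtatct
JAZ7: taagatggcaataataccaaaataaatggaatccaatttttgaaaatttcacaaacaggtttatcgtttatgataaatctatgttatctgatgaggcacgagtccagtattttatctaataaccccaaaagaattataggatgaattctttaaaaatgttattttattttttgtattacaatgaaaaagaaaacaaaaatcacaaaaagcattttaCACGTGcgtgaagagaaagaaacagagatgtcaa
JAZ8: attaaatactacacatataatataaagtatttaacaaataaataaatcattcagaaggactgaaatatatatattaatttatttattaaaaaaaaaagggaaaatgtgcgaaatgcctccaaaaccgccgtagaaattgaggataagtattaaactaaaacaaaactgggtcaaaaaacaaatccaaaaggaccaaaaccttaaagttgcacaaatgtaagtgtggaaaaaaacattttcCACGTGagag
AOS: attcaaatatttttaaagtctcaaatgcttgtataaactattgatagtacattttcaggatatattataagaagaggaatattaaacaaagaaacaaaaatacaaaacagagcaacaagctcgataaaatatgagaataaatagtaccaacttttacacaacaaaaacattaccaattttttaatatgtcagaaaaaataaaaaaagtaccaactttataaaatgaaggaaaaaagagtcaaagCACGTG
LOX4: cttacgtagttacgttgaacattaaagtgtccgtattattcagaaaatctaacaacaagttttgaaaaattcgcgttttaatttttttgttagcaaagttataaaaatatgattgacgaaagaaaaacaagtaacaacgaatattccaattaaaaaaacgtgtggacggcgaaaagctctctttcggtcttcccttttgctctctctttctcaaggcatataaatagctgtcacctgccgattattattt

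CACGTG was found in 4 of the 10 windows and in 6.5% of 27388 promoters of the same length. It began at position -66 from the gene start in JAZ2, -34 in JAZ7, -10 in JAZ8 and -6 in AOS. TGTCTC was found on either strand in JAZ2, at -53, and in 10.9% of all windows, and TGTCGG, another form of the auxin response element, in none of the 10 and in 4.17% of all windows. The motifs do not overlap one another. In windows of 1000 bases CACGTG was in 7 of 10 genes and in 14.8% of promoters, TGTCTC in 4 and in 39.6%, and TGTCGG in 3 and in 14.6%. These matches describe letters in a window and show no binding.

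Each library held 17.45 to 23.88 M estimated reads. The root tip markers were detected in every group (9 of 9 genes, summed level 190 to 274 CPM, the counts scaled to library size), and green tissue markers were low (18.7 to 50.3 CPM summed over 6 genes). AXR3, which counts the native gene and the transgene together, stood at 734, 939 and 1180 CPM in XVE:AXR3-1-RFP and at 181, 298 and 861 CPM in HS:AXR3-1, against 93.5 to 175 CPM in the 15 libraries of Col-0. Heat shock genes (6, summed) reached 3790 to 8580 CPM in 5 of the 6 heated libraries but 140 CPM in the library labelled HS:AXR3-1 replicate 1, so results for that line are given with and without it. For the jasmonate genes IAA replicate 3 stood apart. It held the highest level of all 21 libraries for 10 of the 10 genes, with a mean log2 CPM of 4.47, while the next library, PEO-IAA replicate 3, had 2.69, and results for IAA are given with and without it.

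**Figure D1:**
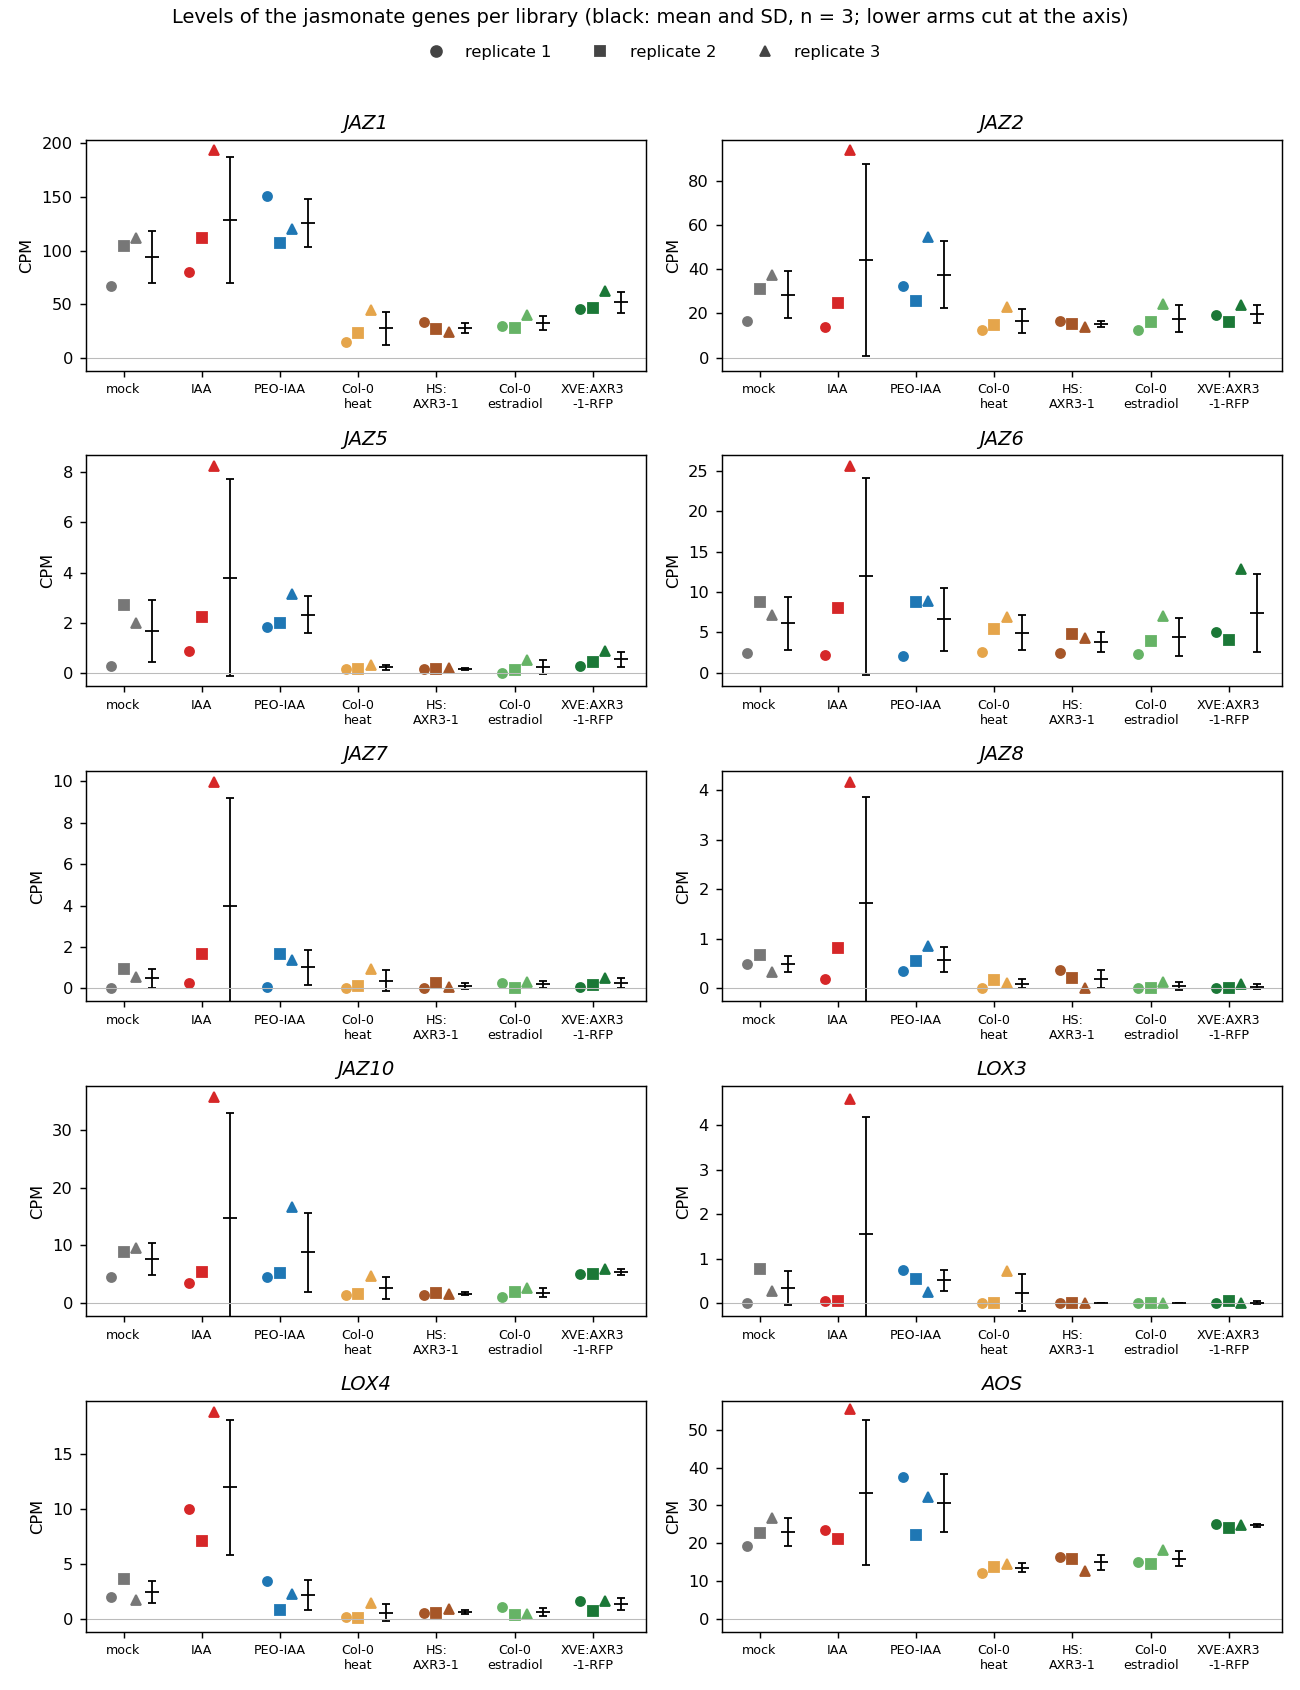
CPM of each gene in every library, with 1 panel per gene, the 7 groups on the horizontal axis, a symbol for each replicate number and black marks for mean and SD (n = 3). The triangle of IAA replicate 3 is the highest point in all 10 panels, and JAZ1 in the mock, IAA and PEO-IAA libraries lies above every library of the other experiments.

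Compared per transcript length, in TPM, the genes spanned a wide range in mock-treated tips. JAZ1 was the most abundant at 90.0 ± 32.3 TPM (SD, n = 3), followed by JAZ2 at 28.4 ± 12.4 and AOS at 11.6 ± 2.45. JAZ10 had 8.89 ± 3.98 TPM and JAZ6 5.61 ± 3.61. JAZ8, JAZ7 and JAZ5 lay between 1.35 and 1.92 TPM and the lipoxygenase genes below 1, LOX4 at 0.706 ± 0.345 and LOX3 at 0.104 ± 0.12. LOX3 was close to the limit of these libraries. It had 20 reads in the 3 mock libraries, 32 with PEO-IAA and 101 with IAA, 99 of these in replicate 3. It had 13 in heated Col-0, 1 in XVE:AXR3-1-RFP and 0 in HS:AXR3-1 and in Col-0 with estradiol, which allows up to 0.0474 and 0.0460 CPM in these groups, a limit that covers counting error only.

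Most of these genes varied more between replicates than the median gene, which was not matched for level. JAZ5, JAZ7, JAZ8 and LOX3 rest on few reads, so counting error is part of their spread. The SD of log2 CPM within groups was 1.66 for JAZ7, 1.45 for LOX3 and about 1 for JAZ5, JAZ6, JAZ8 and LOX4 (1.03, 1.03, 1.00 and 0.95), against a median of 0.26 over all genes tested. AOS, at 0.35, and JAZ1, at 0.46, were the steadiest of the 10, with 66.9% and 77.4% of genes below them. Without IAA replicate 3 the SD of AOS was 0.22 and that of JAZ1 0.41, while LOX4 kept 0.95.

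The first comparison asked what IAA does within 20 min. None of the 10 genes passed the test, where 0.167% of all genes were called. All 10 fitted changes lay above 0, with a median log2 change of 1.08 (all genes, -0.004), and 2 of 10 had an unadjusted p under 0.05 (3.39% of all genes). Without IAA replicate 3, 4 of the 9 genes that then had enough reads for a fold were above 0 and their median was -0.03. With the replicate number as a block, which sets each IAA library against the mock library of its own number, 10 of 10 lay above 0 and the median was 0.82. Within these 3 pairs the IAA library was the higher in all 3 for 3 genes (JAZ1, JAZ7 and LOX4), in 2 for 4 genes and in 1 for 3 genes (JAZ2, JAZ6 and JAZ10). No share over all genes is given beside these counts of pairs, so they are a description only.

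LOX4, the lipoxygenase gene, was the only one of the 10 whose IAA libraries all lay above the mock libraries. It stood at 9.95, 7.04 and 18.8 CPM with IAA and at 1.99, 3.57 and 1.73 CPM with mock. The lowest IAA library, at 7.04 CPM, lay well above the highest mock library, at 3.57 CPM. The fitted difference was 4.90-fold (log2 2.29, SE 0.71, 95% interval 0.80 to 3.78), which did not pass over all genes (edgeR adjusted p = 0.568). With the replicate block the log2 difference was 2.15 (adjusted p = 0.148), and with DESeq2 the adjusted p was 0.162. Without IAA replicate 3 the log2 difference was 1.80 (SE 0.81), which did not pass either. In all, 4.28% of genes had every IAA library above every mock library.

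JAZ7 had the largest fitted change, from very few reads. It stood at 0.243, 1.66 and 9.96 CPM with IAA and at 0, 0.917 and 0.541 CPM with mock, and the groups overlapped. The log2 difference was 3.02 (SE 1.36, edgeR adjusted p = 1) and 0.97 (SE 1.49) without IAA replicate 3. With the replicate block it was 2.82 (SE 0.87, adjusted p = 0.295). JAZ1 stood at 80.3, 112 and 194 CPM with IAA and at 66.5, 104 and 112 CPM with mock, a log2 difference of 0.45 (SE 0.34), which was 0.03 without replicate 3.

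JAZ2 and JAZ10 fell on either side of 0 depending on that library. JAZ10 stood at 3.45, 5.43 and 35.6 CPM with IAA and at 4.55, 8.92 and 9.53 CPM with mock. Its first 2 IAA replicates lay within or below the mock range and the last above it. The log2 difference was 0.95 (SE 0.69), and -0.79 (SE 0.56) without replicate 3. JAZ2 stood at 13.7, 24.6 and 93.7 CPM with IAA and at 16.7, 31.1 and 37.4 CPM with mock (log2 0.63, SE 0.50, and -0.57, SE 0.38, without replicate 3). AOS, the allene oxide synthase gene, stood at 23.5, 21.2 and 55.4 CPM with IAA and at 19.2, 22.7 and 26.7 CPM with mock (log2 0.54, SE 0.27, and -0.03, SE 0.19, without replicate 3). The remaining JAZ genes followed the same course, with log2 differences of 1.19 (JAZ5), 0.96 (JAZ6) and 1.80 (JAZ8) that became -0.09, -0.26 and 0.04.

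**Figure D2:**
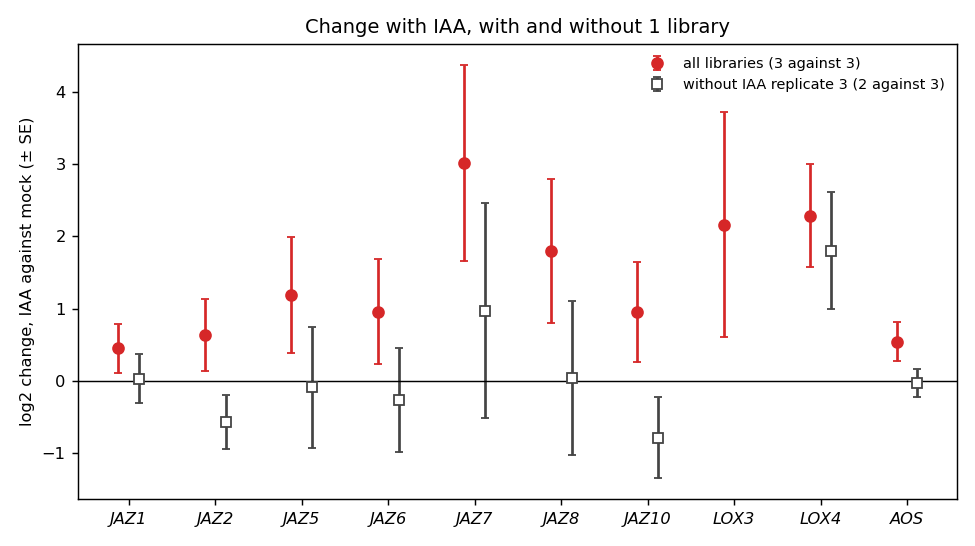
Log2 change of each gene with IAA against mock, fitted with all libraries (filled circles) and without IAA replicate 3 (open squares), with bars of 1 SE. LOX4 has the highest open square, at 1.80 (SE 0.81), after 2.29 (SE 0.71) with all libraries, and passed the test in neither fit. LOX3 has no open square because it then had 2 reads with IAA.

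Of 10 touch and wounding genes 1 passed the test in the same comparison, MPK3, a stress-activated MAP kinase gene that rose 3.71-fold (log2 1.89, SE 0.16, edgeR adjusted p = 4.26e-05), and 10 of 10 fitted changes were above 0 with a median log2 change of 1.07. Their summed level was 917, 754 and 1030 CPM with IAA and 331, 418 and 302 CPM with mock, and the groups did not overlap. Without IAA replicate 3 the median was 0.86, 10 of 10 lay above 0 and MPK3 still passed (log2 1.85, adjusted p = 4.54e-04). With the replicate block 2 passed, MPK3 and TCH3, a calmodulin-like gene (log2 2.51, adjusted p = 0.00105). Over all genes that block called 111 higher and 22 lower, against 29 and 4 without it. Their part in the LOX4 values was not tested. Of the other jasmonate genes none passed, namely 0 of 12 biosynthesis genes tested (median log2 change 0.04, and -0.01 without IAA replicate 3), 0 of 6 other JAZ genes (0.09 and -0.26), 0 of 9 genes of perception and signalling, 0 of 10 catabolism genes (0.24 and -0.13) and 0 of 7 response genes (0.57 and -0.41). COI1, the receptor gene, stood at 55.8 ± 5.67 CPM with IAA and 56.0 ± 1.67 CPM with mock.

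With PEO-IAA none of the 10 genes passed against mock, where 0.0353% of all genes were called, and none had an unadjusted p under 0.05. The fitted log2 differences ran from -0.18 for LOX4 to 1.07 for JAZ7, with a median of 0.41, and 9 of 10 lay above 0. JAZ1 stood at 151, 107 and 120 CPM and overlapped the mock libraries, with a log2 difference of 0.41 (SE 0.34, 95% interval -0.30 to 1.13). JAZ10 stood at 4.60, 5.21 and 16.6 CPM, with replicate 3 again the highest (log2 0.20, SE 0.69). Of the 10 touch and wounding genes 0 passed, 9 lay above 0 and the median was 0.62. Their summed level was 684, 421 and 321 CPM with PEO-IAA, highest in replicate 1, and 331, 418 and 302 CPM with mock.

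IAA and PEO-IAA are related compounds, of which PEO-IAA bears an added phenyl ketone side chain, and were given at doses of 10 nM and 10 µM. The same mock libraries stand behind both comparisons above. In the direct comparison none of the 10 genes passed, where 0.631% of all genes were called. LOX4 stood at 9.95, 7.04 and 18.8 CPM with IAA and at 3.41, 0.770 and 2.27 CPM with PEO-IAA, again without overlap (4.82% of all genes lay higher without overlap). The log2 difference was 2.47 (SE 0.71, 95% interval 0.98 to 3.97, edgeR adjusted p = 0.265). The adjusted p was 0.0507 with the replicate block and 0.0543 with DESeq2, and without IAA replicate 3 the log2 difference was 1.98 (SE 0.81, adjusted p = 0.972). The other 9 genes overlapped between the compounds. Their fitted values ran from 0.03 (JAZ1, 95% interval -0.68 to 0.74) to 1.95 (JAZ7, -0.77 to 4.67). Without IAA replicate 3, 1 of the 9 genes with a fold, LOX4, stayed above 0 and the median was -0.39. Of the touch genes 2 were higher with IAA than with PEO-IAA, MPK3 (log2 1.80, SE 0.16, adjusted p = 1.22e-05) and TCH3 (2.63, SE 0.53, adjusted p = 0.0330), and 6 of 10 lay above 0. Of these only MPK3 passed without IAA replicate 3 (log2 1.76, adjusted p = 9.95e-05), and TCH3 had a log2 difference of 2.60 (adjusted p = 0.103).

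In the heat experiment HS:AXR3-1 was compared with Col-0 after the same heat. None of the 10 genes passed, where 0.0252% of all genes were called, and none had an unadjusted p under 0.05. Of the 9 with enough reads, 4 lay above 0 and 5 below, with log2 differences from -1.78 for JAZ7, which had 6 reads in the line and 20 in Col-0, to 0.94 for JAZ8, which had 8 of its 12 reads in the line in the library labelled HS:AXR3-1 replicate 1. The median was -0.11, and -0.13 with 3 of 9 above 0 without that library, where JAZ7 had -1.22 (SE 1.94) and JAZ8 0.02 (SE 1.67). JAZ1 stood at 32.9, 27.0 and 23.8 CPM in the line and at 14.8, 23.2 and 44.1 CPM in Col-0 (log2 0.03, SE 0.34, 95% interval -0.70 to 0.75, and -0.11, SE 0.39, without that library). JAZ10 stood at 1.39, 1.88 and 1.67 CPM and at 1.42, 1.59 and 4.81 CPM (log2 -0.65, SE 0.75, and -0.54, SE 0.85, without it). AOS stood at 16.4, 15.7 and 12.6 CPM and at 12.2, 13.8 and 14.6 CPM (log2 0.14, SE 0.28, and 0.06, SE 0.32, without it).

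In the estradiol experiment XVE:AXR3-1-RFP was compared with Col-0 given estradiol. None of the 10 genes passed, where 2.81% of all genes were called. The 8 genes with enough reads all lay above 0, with a median log2 difference of 0.71 (all genes, -0.015). In JAZ1, JAZ10 and AOS every library of the line lay above every library of Col-0, as it did in 8.20% of all genes. JAZ10 stood at 5.15, 5.08 and 6.02 CPM in the line and at 1.09, 1.90 and 2.59 CPM in Col-0, and the groups lay well apart. The difference was 2.90-fold (log2 1.54, SE 0.73, 95% interval 0.01 to 3.06, edgeR adjusted p = 0.493). Its adjusted p was 0.0700 with the replicate block, in which the log2 difference was 1.58 (SE 0.48), and 0.282 with DESeq2.

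AOS stood at 25.1, 24.1 and 24.8 CPM in XVE:AXR3-1-RFP and at 14.9, 14.5 and 18.3 CPM in Col-0. The difference of 1.55-fold did not pass (log2 0.63, SE 0.28, edgeR adjusted p = 0.397), nor did it with the replicate block (log2 0.64, adjusted p = 0.158). JAZ1 stood at 45.7, 46.6 and 62.5 CPM and at 29.4, 27.3 and 39.7 CPM (log2 0.68, SE 0.34, adjusted p = 0.553). With the replicate block JAZ1 had a log2 difference of 0.69 (adjusted p = 0.308). LOX4, which was apart with IAA, overlapped here at 1.60, 0.697 and 1.65 CPM in the line and 1.04, 0.310 and 0.446 CPM in Col-0 (log2 1.14, SE 0.80). JAZ2 differed least, at 19.1, 16.3 and 24.0 CPM and at 12.7, 16.0 and 24.4 CPM (log2 0.16, SE 0.51).

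Other genes of the pathway did pass in this comparison. Of 12 biosynthesis genes 2 rose, LOX6, another lipoxygenase gene, from 29.6 ± 4.62 to 52.8 ± 5.32 CPM (log2 0.84, SE 0.15, edgeR adjusted p = 0.00512) and JAR1, which codes for the enzyme that joins jasmonate to isoleucine, 1.33-fold (log2 0.41, SE 0.09, adjusted p = 0.0137). None of the 6 other JAZ, 9 perception, 10 catabolism or 7 response genes passed. Of 10 touch genes 1 rose, WRKY33, a stress transcription factor gene (log2 1.47, SE 0.27, adjusted p = 0.00596), and 10 of 10 lay above 0 with a median of 0.92. Their summed level was 293, 252 and 243 CPM in the line and 154, 116 and 120 CPM in Col-0. Of 6 root hair markers 4 fell, EXPA7, COBL9, RHD6 and RSL4 (median of the 6, -1.19), with a summed level of 69.6 to 243 CPM in the line and 274 to 408 CPM in Col-0. The replicate block, whose numbers were taken to pair the libraries of this experiment, called more genes in general. Over all genes tested it called 828 higher and 661 lower, against 290 and 266 without it. From these lists it called 3 biosynthesis genes, with AOC1, an allene oxide cyclase gene, added (log2 2.25, adjusted p = 0.0320). It called 2 catabolism genes, CYP94B3 lower (-1.13, adjusted p = 0.0239) and ILL6 higher (0.73, adjusted p = 0.0214). It also called 2 touch genes, with TCH3 added (1.40, adjusted p = 0.00543), and 5 root hair markers. Of the 6 other JAZ, 9 perception and 7 response genes it called 0. Of 9 root tip markers 1 was called higher without the block, and their median was -0.04. With the block 1 was higher, BRN1 (log2 0.74), and 2 were lower, SMB (-0.47) and WER (-0.81). Of 5 green tissue markers tested 1, RBCS1A (1.69), was higher with the block. In bulk tips fewer cells of a type and less RNA per cell cannot be told apart. The part of these lists in the values of the jasmonate genes was not tested.

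The difference between the effects of the lines was tested directly. None of the 10 genes passed (0.0252% of all genes were called), and the 8 genes with a fold lay below 0, that is, their fitted effect was lower in HS:AXR3-1 than in XVE:AXR3-1-RFP, with a median of -0.99, and -0.83 without the library labelled HS:AXR3-1 replicate 1. JAZ10 had a log2 difference of -2.18 (SE 1.04, edgeR adjusted p = 1), which was -2.07 (adjusted p = 0.332) with the replicate block and -2.08 without that library. For AOS it was -0.49 (SE 0.39), and -0.58 without that library, and for JAZ1 -0.65 (SE 0.49), and -0.80 without it.

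The only calls among the 10 genes lay between the experiments, where treatment and experiment cannot be told apart. All 9 libraries of the chemical experiment held more JAZ1 than any of the 12 others, 66.5 to 194 CPM with a median of 112, against 14.8 to 44.1 CPM in the heat experiment and 27.3 to 62.5 CPM in the estradiol experiment. JAZ1 was the only one of the 10 genes with no overlap, and 1.28% of all genes tested lay higher in all 9 chemical libraries than in any other. For JAZ5 and LOX4, 8 of the 9 chemical libraries lay above all others, for JAZ2 7, for JAZ8 6, for JAZ7, JAZ10 and AOS 4, for LOX3 3 and for JAZ6 1. In order of group means, IAA was first for all 10 genes with its replicate 3 and for 1 of them, LOX4, without it, and a group of the chemical experiment was last for none.

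Against mock, 1 of the 10 genes was lower in heated Col-0, JAZ1, where 4.25% of all genes were called lower. It stood at 14.8, 23.2 and 44.1 CPM after heat and at 66.5, 104 and 112 CPM with mock, 3.45-fold less (log2 -1.79, SE 0.34, edgeR adjusted p = 0.00466). This call held without any 1 library (log2 -2.32 to -1.49, adjusted p = 0.00113 to 0.0286) and in every other setting. Against mock, 1 of the 10 was also lower in Col-0 with estradiol, again JAZ1, where 0.808% of all genes were called lower. It stood there at 29.4, 27.3 and 39.7 CPM, 2.94-fold less (log2 -1.56, SE 0.34, edgeR adjusted p = 0.0360). DESeq2 gave an adjusted p of 8.09e-04, but without 1 library the call was kept only when mock replicate 1 was left out (log2 -1.76 to -1.41, adjusted p = 0.0265 to 0.182). Both comparisons use the same mock libraries.

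All 10 genes lay below mock after heat (median log2 difference -1.17, all genes -0.004) and the 8 with enough reads did so with estradiol (-1.45, all genes 0.009). JAZ5 stood at 0.142, 0.172 and 0.336 CPM after heat, 0, 0.133 and 0.535 CPM with estradiol and 0.290, 2.70 and 2.00 CPM with mock. Its log2 differences of -2.93 (SE 0.96, edgeR adjusted p = 0.0710) and -2.84 (SE 0.95, adjusted p = 0.260) did not pass, and the first did with DESeq2 (adjusted p = 0.0185) and without mock replicate 1 (log2 -3.43, adjusted p = 0.0412). LOX4 stood at 0.142, 0.0430 and 1.46 CPM after heat (log2 -2.21, SE 0.79, adjusted p = 0.108, and 0.0434 with DESeq2). Without Col-0 heat replicate 3 it was -4.67 (adjusted p = 0.00492). AOS differed by -0.76 after heat (SE 0.28, adjusted p = 0.111, and 0.0320 in a fit of these groups alone) and by -0.53 with estradiol (SE 0.28, adjusted p = 0.719). JAZ6 differed least, by -0.30 (SE 0.74) and -0.46 (SE 0.74).

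**Figure D3:**
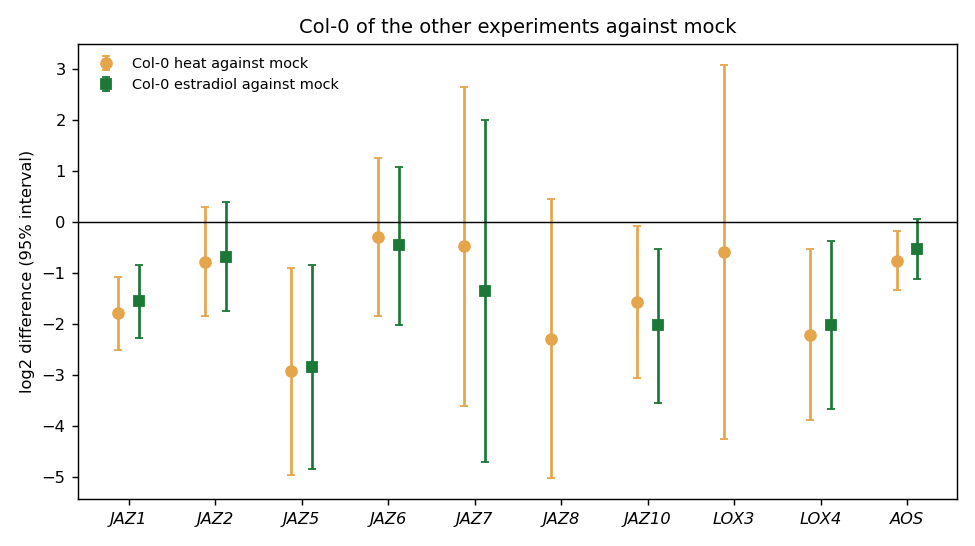
Log2 difference of Col-0 after heat (circles) and Col-0 with estradiol (squares) from mock, with 95% intervals. The points shown all lie below 0, the intervals of JAZ1 lie farthest from it relative to their width, and JAZ8 and LOX3 have no square because a group held 3 reads or fewer.

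Col-0 after heat and Col-0 with estradiol did not differ in any of the 10 genes by this test, where 1.54% of all genes were called. The 8 genes with a fold ran from -0.23 (JAZ1, 95% interval -0.96 to 0.49) to 0.88 (JAZ7, -2.55 to 4.31), with a median of -0.09.

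Against mock, 8 of 10 touch and wounding genes fell in heated Col-0 (median log2 difference -2.16) and 3 of 10 in Col-0 with estradiol (-1.52), none rose. CML38, a calmodulin-like gene, fell by 4.45 (SE 0.49, edgeR adjusted p = 6.56e-05) and by 3.79 (SE 0.46, adjusted p = 5.73e-04) on the log2 scale, and WRKY33 by 2.29 and 1.71. TCH2, another calmodulin-like gene, fell by 1.16 and 1.53. Their summed level was 302 to 1030 CPM over the 9 chemical libraries, 67.4 to 134 CPM with heat and 116 to 293 CPM with estradiol. Among jasmonate genes outside the 10, CYP94B3, which codes for an enzyme that oxidises the active hormone, fell from 69.6 ± 26.1 CPM with mock to 3.08 ± 1.59 CPM after heat (log2 -4.52, SE 0.55, adjusted p = 2.50e-04) and 4.97 ± 1.61 CPM with estradiol (log2 -3.80, SE 0.53, adjusted p = 0.00169). ERF109, a stress transcription factor gene, fell from 6.46 ± 2.30 CPM to 0.0517 ± 0.0565 CPM after heat (adjusted p = 0.00445), where it was too low for a fold, and to 0.185 ± 0.179 CPM with estradiol (adjusted p = 0.0300), and ST2A, a sulfotransferase gene of hormone breakdown, fell after heat (-1.23, SE 0.26, adjusted p = 0.00885). No gene of the biosynthesis (12), other JAZ (6) or perception (9) lists passed in either comparison. Of 5 dividing cell markers 1 fell after heat, and the summed level of the 5 was 81.4 to 138 CPM against 149 to 162 CPM with mock. The part of the touch genes or of cell division in the JAZ1 values was not tested.

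**Figure D4:**
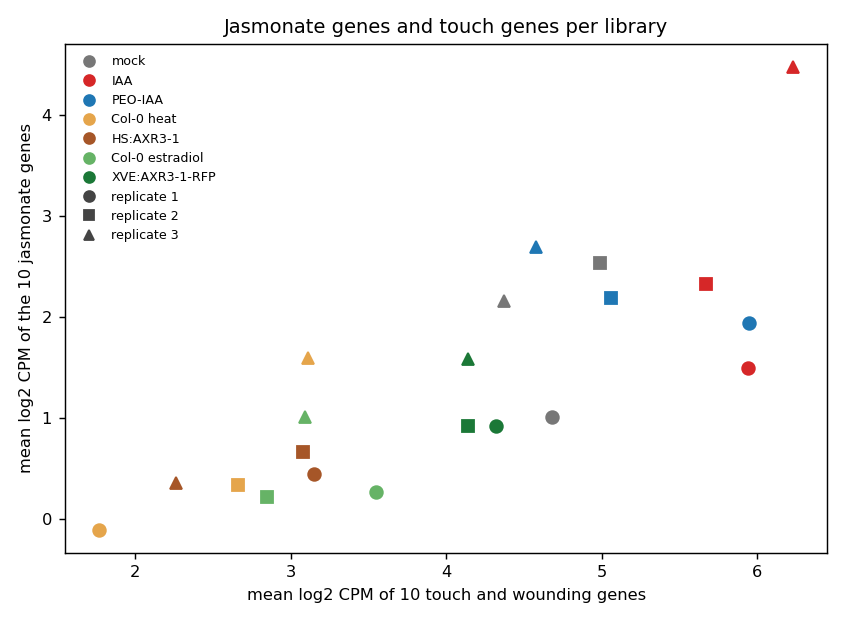
Mean log2 CPM of the 10 jasmonate genes (vertical) against the mean of 10 touch and wounding genes (horizontal), 1 point per library, coloured by group with a symbol per replicate number. IAA replicate 3 stands at the upper right, at 6.23 and 4.47, while IAA replicate 1, at 5.94, has a jasmonate mean of 1.49, within the range of the mock libraries (1.01 to 2.53).

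The 10 genes varied together within groups. Over the deviations of the 21 libraries from their group means, 45 of 45 pairs of genes had a Pearson r above 0, with a median of 0.68, and JAZ2 and JAZ10 had the highest at 0.94. Without IAA replicate 3 the median was 0.49 and the range -0.08 to 0.88, again highest for JAZ2 with JAZ10. LOX4 had the lowest median r to the other 9, 0.39, and 0.30 without that library, when AOS followed at 0.34. AOS had 0.65 with it, and JAZ2 had 0.80 and 0.62. LOX4 had an r of 0.58 with JAZ1, and 0.54 without that library, when its highest was 0.59 with LOX3. These values are a description over libraries that share groups and replicate numbers, and no r for pairs of other genes is given beside them. The values of LOX3, JAZ7 and JAZ8 rest on few reads. Replicate 3 was the highest of its group in mean log2 CPM in 5 of the 7 groups, the exceptions being mock and HS:AXR3-1.

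**Figure D5:**
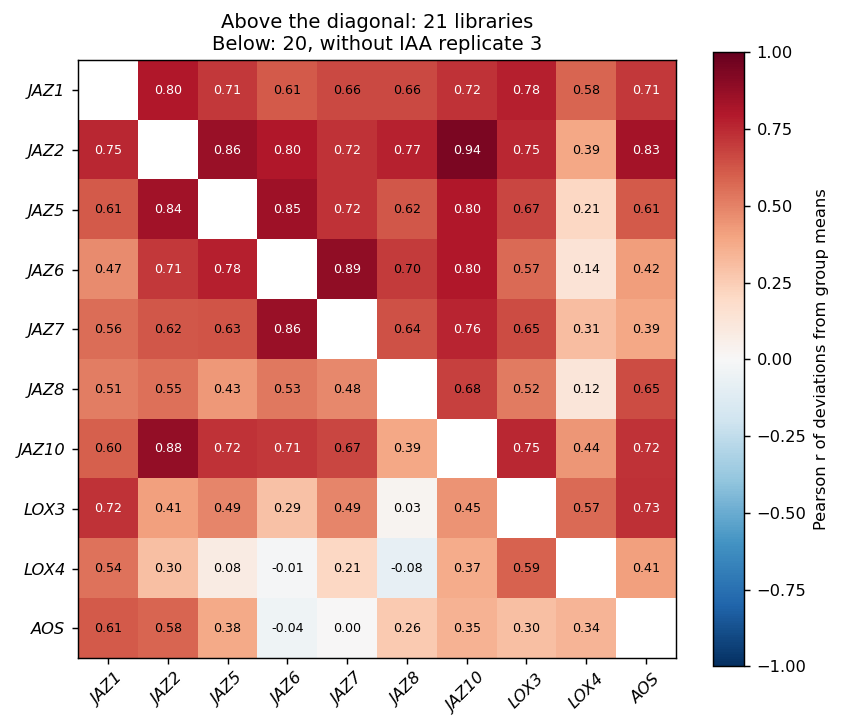
Pearson r between genes of the deviations of log2 CPM from group means, over 21 libraries above the diagonal and over 20 below it, without IAA replicate 3. Values below the diagonal are the lower for most pairs, from -0.08 for LOX4 with JAZ8 to 0.88 for JAZ2 with JAZ10, and pairs of JAZ genes differ too, with 0.39 for JAZ8 with JAZ10.

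Among 15183 other genes with a mean of at least 5 CPM, the 5 whose level over the 21 libraries was most like the mean standardised level of the 10 were PPa4, PAP18, CP31B, SYP21 and AT5G16360. PPa4, a soluble inorganic pyrophosphatase gene, had a Pearson r of 0.929 (Spearman rho 0.922, 0.858 for deviations from group means). PAP18, a purple acid phosphatase gene, had 0.901, CP31B, which codes for a chloroplast RNA-binding protein, 0.898, and the syntaxin gene SYP21 and AT5G16360 0.893 each. Without IAA replicate 3 and PEO-IAA replicate 3, the libraries farthest from the median, r ran from 0.815 to 0.893 for these 5 genes.

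Of the 10 genes, 5 were deposited with more than 1 transcript. JAZ1 reads were assigned mainly to AT1G19180.3, with 87.7% of all its reads and 80.1% to 94.3% in single libraries, and no group stood apart. JAZ2 and JAZ6 were dominated by their first transcript, with 92.5% and 83.1% of all reads and at least 64.6% and 70.9% in single libraries. The lowest JAZ2 share was in PEO-IAA replicate 1, where AT1G74950.2 took 35.4%. JAZ10 had 7 transcripts, of which AT5G13220.1 took 50.4% and AT5G13220.3 24.6% of the reads. The share of AT5G13220.3 was 67.7%, 56.5% and 47.5% in heated Col-0 and at most 39.0% in every other library, but a library of heated Col-0 held only 30 to 86 JAZ10 reads. Division of reads among such similar transcripts is an estimate of the authors' software, so these shares were not tested. Runs of 31 bases shared with transcripts of other annotated genes were absent from 9 of the 10 genes. They made up 1.76% in JAZ10, all shared with the locus AT5G02045. Whether that locus is among the deposited loci was not checked, so whether JAZ10 reads were divided between both cannot be said.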

How the data were processed

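RNA sequencing of 21 root tip libraries in 7 groups was analysed. Groups and replicate numbers came from the labels, which call the replicates biological. The deposited files hold expected counts, TPM and effective lengths per transcript, per the file headers, made by the authors with Salmon 1.3.0 and TAIR10, per the submitters' processing notes. Library layout and strand setting: not given in the sources used here, so reads of overlapping antisense genes cannot be told apart. The deposited TPM values were summed per locus and used only to compare levels between genes.

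Expected counts were summed per locus, rounded and tested with edgeR 4.0.16 (R 4.3.3, quasi-likelihood, TMM scaling, default low-count filter). All 21 libraries entered 1 fit with 14 residual degrees of freedom, with Benjamini-Hochberg adjustment over 19809 genes and calls at an adjusted p under 0.05. CPM used TMM-scaled library sizes. SE values are Wald errors of the fitted coefficients. A gene with 3 reads or fewer in a group got no fold. Log2 CPM values used a prior count of 2. Totals of 17.45 to 23.88 M reads set the counting precision, and the script was checked on simulated counts.

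The 10 genes, the other lists and the tests were chosen with earlier results of these data known. The rule for named genes took all 10, up to 3 called genes of each other list per comparison with the smallest p, AXR3 and the 5 genes most like the 10. COI1 and 1 of the root hair markers fall outside that rule and were named after their values were seen.

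Alternatives were DESeq2 1.42.0, scaling by median of ratios, a length offset, all genes without the filter, the compared groups alone, the replicate number as a block, and each library left out. Libraries with the same number deviated together in the chemical (r of 0.523 to 0.784) and estradiol (0.488 to 0.698) experiments, which was taken as pairing there. No r for libraries of different numbers is given beside these values, and the main fit does not use the pairing. In the heat experiment r was 0.087, 0.447 and 0.275, which does not show that numbers pair its libraries. The block was fitted there too, so its values for HS:AXR3-1 and for the difference of the lines rest on a pairing not shown. Promoters were read from RefSeq TAIR10.1, in whose annotation 22 of the 22 deposited transcripts of the 10 genes have the same name and length, and both strands were searched. Promoters of 5 of the 10 genes are printed, and 1 of the others is not reported here.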

Additional observations from a re-analysis of the deposited data

How the results depend on the processing

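None of the 10 genes was called in any comparison within an experiment, nor between Col-0 after heat and Col-0 with estradiol, under any alternative that was run. The count called between heated Col-0 and mock, 1 as reported, was 3 with DESeq2, 2 with the compared groups alone, and 1 to 2 without single libraries. That between Col-0 with estradiol and mock, 1 as reported, was 0 to 1 without single libraries. Of 964 alternative values of single genes, 892 kept direction and call, 62 changed sign, 5 gained and 5 lost the call. With the replicate block, IAA against PEO-IAA gave -0.07 for JAZ1 and -0.10 for JAZ2, and PEO-IAA against mock gave -0.08 for JAZ10. With the length offset JAZ5 gave 0.05 for heated Col-0 against estradiol. The other changes of sign came from leaving out 1 library, and the cause was not tested.

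Log2 ranges without single libraries that cross 0 were, for IAA against mock, -0.57 to 1.06 (JAZ2), -0.09 to 1.73 (JAZ5), -0.26 to 1.45 (JAZ6), -0.79 to 1.42 (JAZ10) and -0.03 to 0.79 (AOS). For PEO-IAA against mock they were -0.02 to 1.02 (JAZ5), -0.26 to 0.54 (JAZ6), -0.14 to 0.49 (JAZ8), -0.64 to 0.51 (JAZ10), -0.00 to 1.93 (LOX3) and -0.69 to 0.24 (LOX4). For IAA against PEO-IAA they were -0.39 to 0.28 (JAZ1), -0.97 to 0.66 (JAZ2), -0.57 to 1.17 (JAZ5), -0.37 to 1.34 (JAZ6), -0.09 to 2.50 (JAZ7), -0.19 to 2.1 (JAZ8), -0.98 to 1.60 (JAZ10) and -0.45 to 0.37 (AOS). For HS:AXR3-1 they were -0.27 to 0.56 (JAZ1), -0.29 to 0.19 (JAZ2), -0.64 to 0.01 (JAZ5), -0.95 to 0.14 (JAZ10) and -0.31 to 2.73 (LOX4). For XVE:AXR3-1-RFP they were -0.02 to 0.49 (JAZ2) and -0.76 to 1.04 (JAZ7), and for the difference of the lines -0.60 to 0.01 (JAZ2) and -1.51 to 1.56 (LOX4). For heated Col-0 against mock they were -0.68 to 0.03 (JAZ6), -1.07 to 0.37 (JAZ7) and -1.17 to 0.76 (LOX3), and against estradiol -0.76 to 0.07 (JAZ1), -0.40 to 0.22 (JAZ2), -0.63 to 0.13 (JAZ5), -0.16 to 0.67 (JAZ6), -0.32 to 0.79 (JAZ10) and -2.63 to 0.46 (LOX4).

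Over all genes, calls higher and lower with IAA were 29 and 4, and 111 and 22 with the replicate block, 96 and 20 with DESeq2, 11 and 0 with the compared groups alone. For PEO-IAA 0 and 7 became 0 and 11 with the block and 2 and 23 with DESeq2. For IAA against PEO-IAA 99 and 26 became 234 and 107, 174 and 67, and 65 and 9 in the same order as for IAA. For HS:AXR3-1 5 and 0 became 63 and 23, 26 and 14, and 0 and 0, with 2 higher under no filter and 1 under the length offset. For XVE:AXR3-1-RFP 290 and 266 became 828 and 661 with the block and 476 and 401 with DESeq2. For the difference of the lines 3 and 2 became 31 and 20, 45 and 12, and 0 and 0. DESeq2 gave 1051 and 1177 in place of 664 and 842 for heat against mock, 111 and 299 in place of 39 and 160 for estradiol against mock, and 507 and 466 in place of 170 and 136 for heat against estradiol, where the compared groups alone gave 328 and 222. The block changed no call among the 10 genes. JAZ5, JAZ7, JAZ8 and LOX3 rest on few reads, which limits what can be detected for them.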
